A study of Mus musculus with 18 samples.

Results

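The genes described here encode the nuclear subunits of the oxidative phosphorylation system, the 4 respiratory complexes and the ATP synthase of the inner mitochondrial membrane. They were taken from the array annotation by symbol, as genes whose names begin with Ndufa, Ndufb, Ndufc, Ndufs, Ndufv, Sdha to Sdhd, Uqcr, Cox4i, Cox5, Cox6, Cox7, Cox8 or Atp5, with the brightest transcript cluster kept for each gene. The rule gave 93 of the 19938 genes analysed, represented by 119 transcript clusters. By complex there were 34 genes of complex I, 4 of complex II, 8 of complex III, 10 of complex IV, 17 of the ATP synthase, 3 muscle isoforms of complex IV (Cox6a2, Cox7a1 and Cox8b) and 6 other isoforms or related genes. The prefixes also took 11 assembly factors (Ndufaf1 to Ndufaf7 and Sdhaf1 to Sdhaf4), which are not subunits and are described apart from the 82 subunit genes. A further 6 clusters of the family carried several gene symbols and were not members, among them the clusters of Cox7c.

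RNA was measured on 18 Affymetrix mouse arrays, 3 for each of 6 groups of C2C12 cells, a mouse myoblast line that fuses into myotubes when serum is withdrawn. In all 6 groups endogenous TAF3, a subunit of the TFIID complex, had been depleted and replaced by transduced murine TAF3, so no group holds unmodified cells. The 3 genotypes were WT-TAF3 alone (called WT-TAF3 control here, since the labels of these arrays name no control shRNA), WT-TAF3 with depletion of PIP4K2B (WT-TAF3 sh-PIP4K2B), and KK-TAF3, a mutant of the phosphoinositide-binding site, with depletion of PIP4K2B (KK-TAF3 sh-PIP4K2B). Each genotype was measured after differentiation in 2% horse serum for 2 days and after etoposide, an inhibitor of topoisomerase II, at 10 µM for 7 hours. The labels give medium with 10% serum for growth and describe the switch to horse serum only for the differentiated cells, and untreated growing cells were not analysed here, so in a comparison of etoposide with differentiation the drug, the serum and the state of the cells cannot be told apart. The array means are over whole cultures, in which fewer cells of a type and less RNA per cell cannot be told apart.

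Complex I takes electrons from NADH and complex II from succinate, ubiquinone carries them to complex III, cytochrome c carries them on to complex IV, and the proton gradient built by complexes I, III and IV drives the ATP synthase. Complex I, complex III, complex IV and the ATP synthase join subunits from the nuclear genome with a few from mitochondrial DNA, whereas complex II is nuclear throughout. In skeletal and heart muscle several widely expressed subunits of complex IV are exchanged for muscle isoforms as muscle matures. None of the 13 subunit genes of mitochondrial DNA that were listed was measured under 1 symbol, so the values below concern the nuclear part alone.

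Nuclear genes of this system are textbook targets of NRF1, of the ETS factor GABP, of estrogen-related receptors and of YY1. The RefSeq promoter table (GRCm38.p6; 250 bases before to 50 after each annotated start) held 82 windows for 77 of the genes. Exact matches were sought on both strands. GCATGCGC, an NRF1 core, was in 14.6% of the 82 windows against 2.71% of all 32851 windows in the table, CCGGAAG, an ETS core, in 25.6% against 8.86%, AAGATGGC, a YY1 core, in 12.2% against 2.75%, TCAAGGTCA, an estrogen-related receptor element, in 2.44% against 0.423%, and CAGCTG, an E-box bound by MyoD, in 7.32% against 16.3%. These shares describe letters in a window and were not tested. Stretches of genes whose values are given below are shown with the motif in capitals, in either orientation, read 5′ to 3′ on the gene's strand. They were chosen to show each motif in genes named below, from complexes I to IV, the ATP synthase, an assembly factor and a muscle isoform.
Uqcrc1, NRF1 core, chr9:108936667-108936696, plus strand: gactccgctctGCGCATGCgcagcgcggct
Cox6a1, NRF1 core, chr5:115349102-115349131, minus strand: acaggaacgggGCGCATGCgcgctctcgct
Ndufaf5, NRF1 core, chr2:140170651-140170680, plus strand: tagtcccgttgGCGCATGCgcctaatagaa
Sdhd, ETS core, chr9:50603877-50603906, minus strand: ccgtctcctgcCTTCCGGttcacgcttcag
Sdhd, estrogen-related receptor element, chr9:50603800-50603829, minus strand: tttccgggttgtagagTGACCTTGAgccct
Ndufb8, YY1 core, chr19:44555393-44555422, minus strand: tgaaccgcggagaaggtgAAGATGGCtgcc
Atp5pb, YY1 core, chr3:105959248-105959277, minus strand: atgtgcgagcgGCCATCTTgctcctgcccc
Cox8b, MyoD E-box, chr7:140900448-140900477, minus strand: tgtgacaggagaCAGCTGcagctctccacc
In Uqcrc1, Cox6a1 and Ndufaf5 the capitals mark the NRF1 core as it reads from the other strand, and the same stretch also holds it on the printed strand, overlapping the capitals. None of the 5 sets of letters was in the windows of Uqcr10, Atp5o, Cox7a1 or Sdhaf4.

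Values are log2 signals from RMA, and a difference of 1 is a doubling. Signals of different genes come from different probes and are not compared. Replicate arrays correlated between 0.9904 and 0.9967 within the groups, and the array medians over all transcript clusters lay between 7.25 and 7.46. Pip4k2b, the target of the shRNA, was lower by 1.14 in differentiated cells and by 0.88 after etoposide, so the depletion was visible in both treatments. Of the 93 genes, 84 had a mean signal above the median of all genes. Differences were tested with limma over all 19938 genes, and a gene passed the threshold when its p, adjusted by Benjamini and Hochberg's method, was below 0.05 and it changed by more than 1.4-fold (0.49 on the log2 scale). Counts at the adjusted p alone are given beside it because most differences of these genes were smaller than 1.4-fold. Counts at an unadjusted p under 0.05 have no share of all genes beside them. They are not read as a result about the members.

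PIP4K2B depletion in differentiated cells left the subunit genes within narrow bounds. None of the 82 subunit genes was past the threshold, and 1 of the 93 genes was, the assembly factor Sdhaf4. Among all genes 0.682% were past it as higher and 0.376% as lower, or 3.21% and 2.93% at the adjusted p alone, at which Sdhaf4 was again the single member. At an unadjusted p under 0.05 there were 10. The median difference over the 93 genes was 0.07, with 71 of them positive, against -0.02 over all genes and 0.06 over the 9969 genes with a signal above the median. Of all genes 44.7% were positive, and of those above the median signal 67.4%. With each array centred on its median the members' median was 0.17 and that of all genes 0.07, with 6.42% of all genes higher and 0.948% lower at the adjusted p alone, and with quantile normalization within each treatment the members' median was 0.04. The extremes were Sdhaf4 at 0.63 and Cox8c, a testis isoform, at -0.23 (adjusted p = 0.188). For 88 genes the 95% interval of the difference lay wholly inside 1.4-fold in both directions, so that larger changes lay outside the intervals of those genes. Intervals and tests here and below use 1 spread per gene over all 6 groups. They do not allow for the lower spread of the differentiated groups, so the interval counts are not compared between treatments.

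Replacing WT-TAF3 by KK-TAF3 in differentiated cells that lacked PIP4K2B gave no member past the threshold in limma, where 0.301% of all genes were higher and 0.216% lower. At the adjusted p alone, which 0.572% of all genes passed as higher and 0.406% as lower, 1 member did, the muscle isoform Cox8b, which fell. Of all genes 57.9% were positive, and of those above the median signal 60%. The members' median was 0.04, with 68 genes positive, against 0.02 over all genes, and 3 members had an unadjusted p under 0.05. Sdhd, a membrane anchor of complex II, had the highest value at 0.23 (adjusted p = 0.699). The interval lay inside 1.4-fold for 92 genes, all but Cox8b. This comparison and that of PIP4K2B depletion share the WT-TAF3 sh-PIP4K2B arrays, so their values are not independent.

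After etoposide neither genotype comparison had a member past the threshold or at the adjusted p alone. For PIP4K2B depletion the background was 0.321% higher and 0.547% lower (1.04% and 2.11% at the adjusted p alone). Of all genes 56.3% were positive, and of those above the median signal 34.9%. The members had a median of -0.01, with 38 positive, and ranged from Cox7a1 at -0.37 to Cox6a2 at 0.18, both muscle isoforms of complex IV, and 4 had an unadjusted p under 0.05. The sign of this median was not stable, at 0.05 without control replicate 3, 0.03 without WT-TAF3 sh-PIP4K2B replicate 2 and 0.02 with quantile normalization within each treatment, where 1.59% and 2.03% of all genes were higher and lower at the adjusted p alone. For KK-TAF3 the background was 0.341% higher and 0.0652% lower (0.687% and 0.211% at the adjusted p alone). Of all genes 47.4% were positive, and of those above the median signal 63.9%. The members' median was 0.08, with 74 genes positive, against -0.01 over all genes and 0.05 over those above the median signal. An unadjusted p under 0.05 was found for 15, a count without a share of all genes beside it. Leaving out replicate 3 of KK-TAF3 sh-PIP4K2B gave a median of 0.02 and leaving out replicate 2 of WT-TAF3 sh-PIP4K2B 0.04, whereas it was 0.12 without KK-TAF3 sh-PIP4K2B replicate 1 and 0.13 without WT-TAF3 sh-PIP4K2B replicate 3. The split of all genes at the adjusted p alone was 0.647% higher and 0.451% lower with quantile normalization within each treatment. The range ran from Ndufaf3, an assembly factor of complex I, at -0.18 to Atp5k, the e subunit of the ATP synthase, at 0.34. The intervals lay inside 1.4-fold for 91 genes under depletion and for 85 under KK-TAF3.

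**Figure D1:**
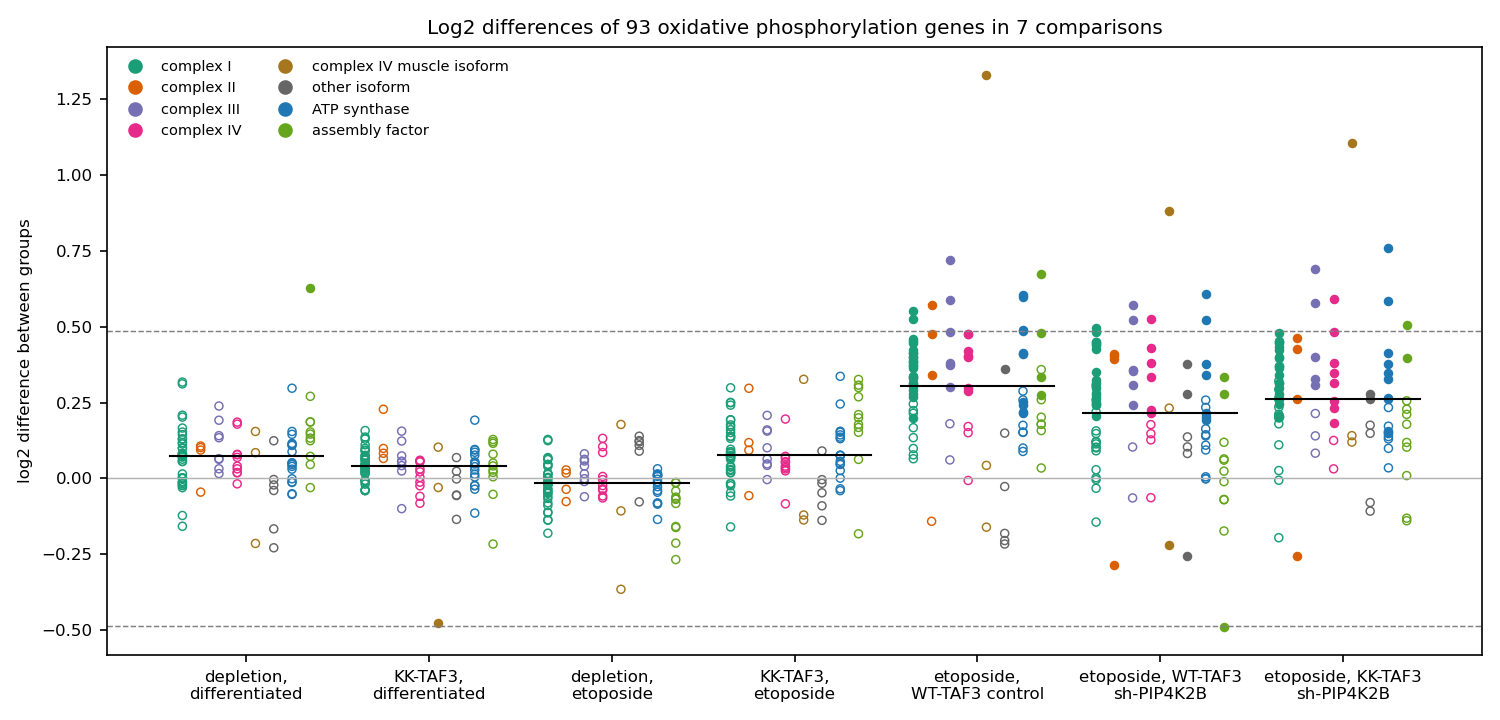
Log2 difference (vertical axis) of each of the 93 genes in 7 comparisons (horizontal axis), coloured by complex, with filled points for an adjusted p under 0.05, a black bar at the median of the 93 genes and dashed lines at 1.4-fold in each direction. The 4 genotype comparisons have medians between -0.01 and 0.08 and 2 filled points in all (Sdhaf4 and Cox8b), whereas the 3 comparisons of etoposide with differentiation have medians of 0.30, 0.22 and 0.26 and mostly filled points.

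Etoposide-treated cells stood apart from differentiated cells over much of the system, in each genotype. In WT-TAF3 control cells 58 of the 93 genes were higher at the adjusted p alone and none was lower, while 14.6% of all genes were higher and 8.57% lower. In WT-TAF3 sh-PIP4K2B cells 45 were higher and 4 lower, against 18.7% and 16.0% of all genes. In KK-TAF3 sh-PIP4K2B cells 51 were higher and 1 lower, against 12.8% and 12.6%. The higher genes made up 62.4%, 48.4% and 54.8% of the members, more than the background in each genotype, also where that was taken over the 9969 genes above the median signal, of which 26.0%, 21.1% and 19.7% were higher in the same order. The same genotypes had members' medians of 0.30, 0.22 and 0.26 and all-gene medians of -0.05, 0.07 and 0.03.

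Most of these differences were small, and the counts with the fold limit were accordingly lower and depended on single arrays. Past the threshold were 10 higher and 0 lower in WT-TAF3 control cells (background 4.71% and 2.92%), 7 higher and 1 lower in WT-TAF3 sh-PIP4K2B cells (3.64% and 6.3%) and 7 higher and 0 lower in KK-TAF3 sh-PIP4K2B cells (3.52% and 4.81%). Without replicate 3 of the etoposide-treated WT-TAF3 control arrays 5 genes were past the threshold, and without replicate 1 there were 18. In WT-TAF3 sh-PIP4K2B cells the counts were 4 without etoposide replicate 3 and 13 without etoposide replicate 1, and in KK-TAF3 sh-PIP4K2B cells 13 without etoposide replicate 1. At the adjusted p alone 39, 33 and 32 genes passed without etoposide replicate 3 of the genotype, in place of 58, 49 and 52. With all 3 etoposide arrays numbered 3 left out together, the counts were 5, 4 and 5 past the threshold and 54, 46 and 47 at the adjusted p alone.

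The spread behind this is visible array by array. Taking for each array the median over the 93 genes of the signal minus the gene's mean over 18 arrays, the differentiated arrays lay between -0.24 and -0.08 and the etoposide arrays between 0.01 and 0.32, with no overlap between the treatments. Among etoposide arrays the highest values were 0.26, 0.22 and 0.32, each of them replicate 3 of its genotype, and the other 6 lay between 0.01 and 0.17. Over all genes the same measure lay between -0.03 and 0.03 on differentiated arrays and between -0.03 and 0.05 on etoposide arrays, which overlapped. On the etoposide arrays numbered 3 the all-gene values were 0.01, 0.04 and -0.01, in the same order of genotypes. In etoposide-treated WT-TAF3 control cells 87 of the 93 genes were highest on replicate 3, in WT-TAF3 sh-PIP4K2B cells 77 and in KK-TAF3 sh-PIP4K2B cells 76. The differentiated groups had no such array, since the most frequent highest array held 45, 40 and 39 genes in the same order of genotypes. For these counts the shares over all genes were not computed. The median SD of the genes over replicates was 0.12 to 0.13 in the etoposide groups and 0.04 to 0.05 in the differentiated groups. The main fit does not take up this difference. In fits of only the groups compared, the genotype comparisons had 1 and 0 members past the threshold in differentiated cells and 0 and 0 after etoposide, as in the main fit. What the arrays numbered 3 share was not tested.

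**Figure D2:**
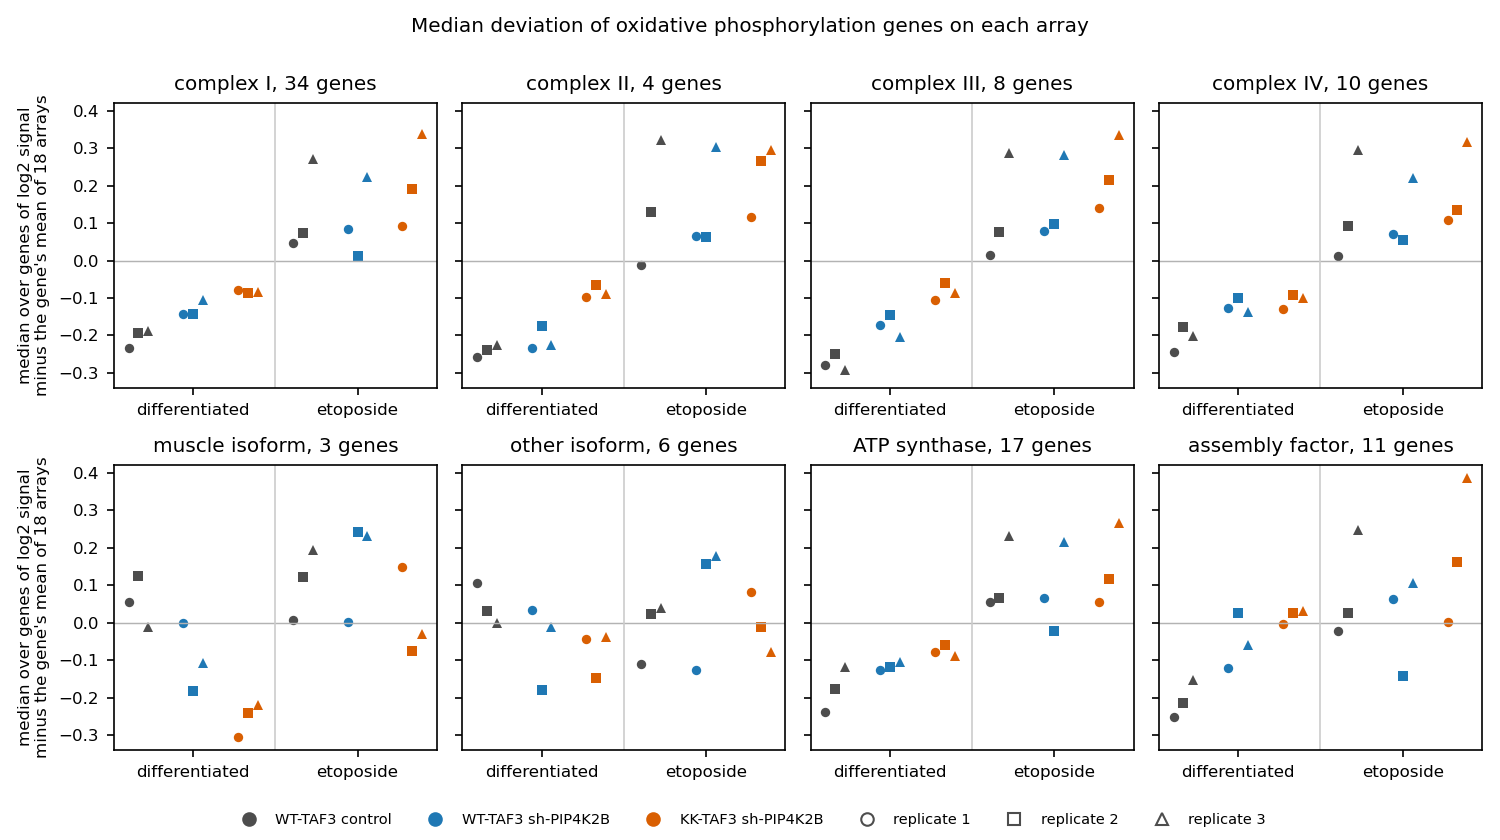
Median over the genes of each class of the log2 signal minus the gene's mean of 18 arrays (vertical axis), 1 point an array, with colours for genotype and shapes for replicate number, differentiated arrays on the left of each panel and etoposide arrays on the right. For complexes I, III and IV and the ATP synthase the differentiated arrays sit below 0 and replicate 3 is the highest etoposide array of each genotype, while the muscle isoforms, the other isoforms and the assembly factors overlap between treatments.

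Of the 62 genes higher in at least 1 genotype at the adjusted p alone, 37 were higher in all 3. The matching shares over all genes were not computed. These counts and those with the fold limit that follow therefore have no background. Past the fold limit 5 genes were higher in all 3, namely the muscle isoform Cox7a1, the complex III subunits Uqcrc1 and Uqcr10, and the ATP synthase subunits Atp5o and Atp5mpl, and 13 genes passed it in at least 1 genotype. With each array centred on its median, Uqcrc1, Uqcr10 and Atp5o lost the call in WT-TAF3 sh-PIP4K2B cells. Uqcr10 and Atp5o also lost it there with the array median as a covariate. No gene was lower in all 3, and those lower in at least 1 at the adjusted p alone were Sdha, Sdhaf4, Cox8b and Cox7b2. The 3 comparisons use separate arrays of the same cell line.

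The treatment comparison was sensitive to how the arrays were scaled. The deposited values had unequal medians between arrays. These medians were taken over all 35556 transcript clusters and not over the genes tested. Centring each array on its median moved the median of all genes by -0.11 in WT-TAF3 sh-PIP4K2B cells. There the share of all genes higher or lower at the adjusted p alone went from 18.7% and 16.0% to 8.19% and 21.1%, and the members from 45 higher and 4 lower to 23 higher and 5 lower. In KK-TAF3 sh-PIP4K2B cells the shares of all genes became 7.83% and 14.4%, with 32 members higher and 1 lower. The members' medians stayed above 0 after centring, at 0.34 in WT-TAF3 control, 0.11 in WT-TAF3 sh-PIP4K2B and 0.20 in KK-TAF3 sh-PIP4K2B cells, against -0.02, -0.04 and -0.03 over all genes.

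Complex I, the largest complex, passes electrons from NADH through a flavin and a chain of iron-sulfur clusters to ubiquinone. Of its 34 genes 26 were higher after etoposide in WT-TAF3 control cells at the adjusted p alone, 18 in WT-TAF3 sh-PIP4K2B cells and 21 in KK-TAF3 sh-PIP4K2B cells, and none was lower. The medians were 0.34, 0.25 and 0.29. Most products of the 6 core genes bind the flavin or iron-sulfur clusters. The core genes and the 28 supernumerary genes had like medians in WT-TAF3 control cells, 0.33 and 0.34. There 6 of 6 core and 20 of 28 supernumerary genes were higher. Among the core genes Ndufv1, the flavoprotein that oxidises NADH, rose by 0.27, 0.24 and 0.24 in the 3 genotypes, in the order control, WT-TAF3 sh-PIP4K2B, KK-TAF3 sh-PIP4K2B, which is kept below. Ndufs1, which holds several iron-sulfur clusters, rose by 0.39 in the control, whereas its values were 0.00 and 0.21 in the other two.

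The 3 supernumerary genes of complex I past the fold limit in some genotype were Ndufb8, Ndufa1 and Ndufb11, all of the membrane arm. Ndufb8, whose protein is widely used as an indicator of assembled complex I, measured 10.81, 10.92 and 10.92 on the differentiated control arrays and 11.25, 11.35 and 11.63 after etoposide, a rise of 0.53 (SE 0.10, adjusted p = 0.000942). Its values were 0.48 and 0.43 in the other genotypes, both past the adjusted p but just under the fold limit. The treatments did not overlap in any genotype. Without etoposide replicate 3 the control value was 0.42, and the call in control cells was also lost with quantile normalization within each treatment. Ndufb11 rose by 0.34, 0.50 and 0.45, past the fold limit in WT-TAF3 sh-PIP4K2B cells alone, and was under it there without etoposide replicate 3 (0.43) or differentiated replicate 2. That call was also lost with the mean of its 2 transcript clusters, with centred arrays and with the array median as a covariate.

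Ndufa1, which is needed for assembly of the membrane arm, varied more between genotypes. Its control arrays read 8.59, 8.36 and 8.58 after differentiation and 8.99, 8.93 and 9.28 after etoposide (0.55, SE 0.12, adjusted p = 0.00279), which fell under the fold limit without etoposide replicate 3 (0.45) or differentiated replicate 2. In WT-TAF3 sh-PIP4K2B cells the arrays read 8.83, 8.84 and 8.82 and then 9.06, 8.63 and 9.16, so that they overlapped and the difference was 0.12 (adjusted p = 0.463). The difference of the depletion effect between treatments was -0.43 (SE 0.18) for this gene and did not pass (adjusted p = 0.108).

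Complex II oxidises succinate and is also an enzyme of the tricarboxylic acid cycle. Its 4 genes did not move together. Sdhb, the iron-sulfur subunit, rose by 0.47, 0.41 and 0.43, and Sdhc and Sdhd, the membrane anchors, rose by 0.34, 0.40 and 0.26 and by 0.57, 0.39 and 0.46. Sdha, the flavoprotein that binds succinate, went the other way. It measured 12.23, 12.25 and 12.21 on differentiated control arrays and 12.15, 12.10 and 12.02 after etoposide (-0.14, adjusted p = 0.16). In WT-TAF3 sh-PIP4K2B cells it fell from 12.35, 12.34 and 12.32 to 12.16, 11.96 and 12.05, by 0.28 (SE 0.07, adjusted p = 0.0043). In KK-TAF3 sh-PIP4K2B cells it fell from 12.36, 12.41 and 12.44 to 12.24, 12.19 and 12.02, by 0.26 (SE 0.07, adjusted p = 0.0105). In each genotype every etoposide array of Sdha lay below every differentiated array. Of these genes only Sdhd passed the fold limit, in control cells (adjusted p = 0.000682), and without replicate 3 of the etoposide arrays there its value was 0.42.

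Complex III moves electrons from ubiquinol to cytochrome c. Of its 8 genes 6, 6 and 5 were higher at the adjusted p alone, with medians of 0.38, 0.33 and 0.32, and none was lower. Uqcrc1, a core protein of the matrix side, was the most even of the genes past the fold limit. Its control arrays read 11.91, 11.99 and 11.90 after differentiation and 12.44, 12.52 and 12.60 after etoposide. Its WT-TAF3 sh-PIP4K2B arrays read 11.90, 11.99 and 12.003 and then 12.44, 12.51 and 12.65, and its KK-TAF3 sh-PIP4K2B arrays 12.02, 12.06 and 11.98 and then 12.60, 12.62 and 12.57. The rises were 0.59, 0.57 and 0.58 (SE 0.07 each), and the lowest etoposide array stood well above the highest differentiated array throughout. With centred arrays the WT-TAF3 sh-PIP4K2B value was 0.46, under the fold limit.

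Uqcr10, a small subunit of the complex, had its highest difference between treatments in the control. Its control arrays read 10.22, 10.34 and 10.35 and then 10.84, 10.92 and 11.31, a rise of 0.72 (SE 0.11, adjusted p = 8.02e-05). The rises in the other genotypes were 0.52 (adjusted p = 0.0014) and 0.69 (adjusted p = 0.00013). In WT-TAF3 sh-PIP4K2B cells the value was under the fold limit without etoposide replicate 3 (0.45) or without differentiated replicate 1 (0.48). It was also under that limit with centred arrays or with the array median as a covariate. Uqcrfs1, the Rieske iron-sulfur protein, measured differences of 0.18, 0.10 and 0.14, and Uqcrb differences of 0.06, -0.06 and 0.08, none of which passed. Uqcrb had 3 transcript clusters, and its values are those of the brightest cluster alone.

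Complex IV, cytochrome c oxidase, reduces oxygen to water. Of its 10 widely expressed genes 7, 6 and 8 were higher at the adjusted p alone, with medians of 0.35, 0.22 and 0.28. Cox4i1, the common form of subunit IV, read 11.42, 11.44 and 11.44 on differentiated control arrays and 11.71, 11.76 and 12.04 after etoposide, a rise of 0.40 (SE 0.10, adjusted p = 0.00583). In WT-TAF3 sh-PIP4K2B cells the rise was 0.53 (SE 0.10, adjusted p = 0.000537) and in KK-TAF3 sh-PIP4K2B cells 0.59 (SE 0.10, adjusted p = 0.000211), both past the fold limit, though under it without etoposide replicate 3 of the genotype (0.43 and 0.48). The WT-TAF3 sh-PIP4K2B value was also under it with centred arrays or with the array median as a covariate. Cox5a rose by 0.42 in the control and 0.31 in KK-TAF3 sh-PIP4K2B cells, with 0.18 in WT-TAF3 sh-PIP4K2B cells. Ndufa4, once counted with complex I and now placed in complex IV, rose by 0.48, 0.43 and 0.48. Cox6b1 rose by 0.30, 0.23 and 0.26. At the other end Cox6c had differences of -0.01, -0.06 and 0.03 and Cox7b of 0.17, 0.13 and 0.13, none past the adjusted p. Cox6c and Cox7b each had 2 transcript clusters, and these values are those of the brighter cluster alone.

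The ATP synthase turns the proton gradient into ATP through a rotating ring of c subunits and a catalytic head. All 17 genes had positive differences in the control and in KK-TAF3 sh-PIP4K2B cells and 15 in WT-TAF3 sh-PIP4K2B cells, of which 10, 9 and 7 passed the adjusted p. The medians were 0.25, 0.23 and 0.19. The values ran from 0.09 to 0.60, from -0.00 to 0.61 and from 0.04 to 0.76. Atp5o, the oligomycin sensitivity-conferring protein of the stalk, read 11.32, 11.43 and 11.39 and then 11.87, 11.92 and 12.16 in control cells (0.60, SE 0.09, adjusted p = 3.32e-05). It rose by 0.52 in WT-TAF3 sh-PIP4K2B cells (0.44 without etoposide replicate 3) and by 0.59 in KK-TAF3 sh-PIP4K2B cells. The WT-TAF3 sh-PIP4K2B value was also under the fold limit with centred arrays or with the array median as a covariate. Atp5mpl, a small membrane subunit, read 10.77, 10.84 and 10.89 and then 11.26, 11.37 and 11.66 in control cells (0.60, SE 0.11, adjusted p = 0.000322) and rose by 0.61 and 0.76 in the others. Without etoposide replicate 3 the control value was 0.48, just under the fold limit. Atp5pb, subunit b of the stalk, passed the fold limit in control cells alone, at 0.49, with 0.26 (adjusted p = 0.0634) and 0.41 (adjusted p = 0.00641) in the others. The change of its depletion effect between treatments did not pass (adjusted p = 0.281). The call in control cells was lost without etoposide replicate 3 (0.44) and without differentiated replicate 1 or 2. It was also lost with the mean of its 2 transcript clusters, with quantile normalization within each treatment and with the array median as a covariate.

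Atp5b, the catalytic beta subunit, had differences of 0.09, -0.00 and 0.04, and Atp5a1, the alpha subunit, of 0.15, 0.11 and 0.14. None of these passed the adjusted p, and in control cells neither did Atp5j2 and Atp5j, of the membrane part and the stalk, at 0.15 and 0.18. Of the 3 genes for the same c subunit, Atp5g1 rose by 0.42, 0.34 and 0.35, whereas Atp5g2 had differences of 0.22, 0.19 and 0.15 and Atp5g3 of 0.24, 0.16 and 0.27.

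**Figure D3:**
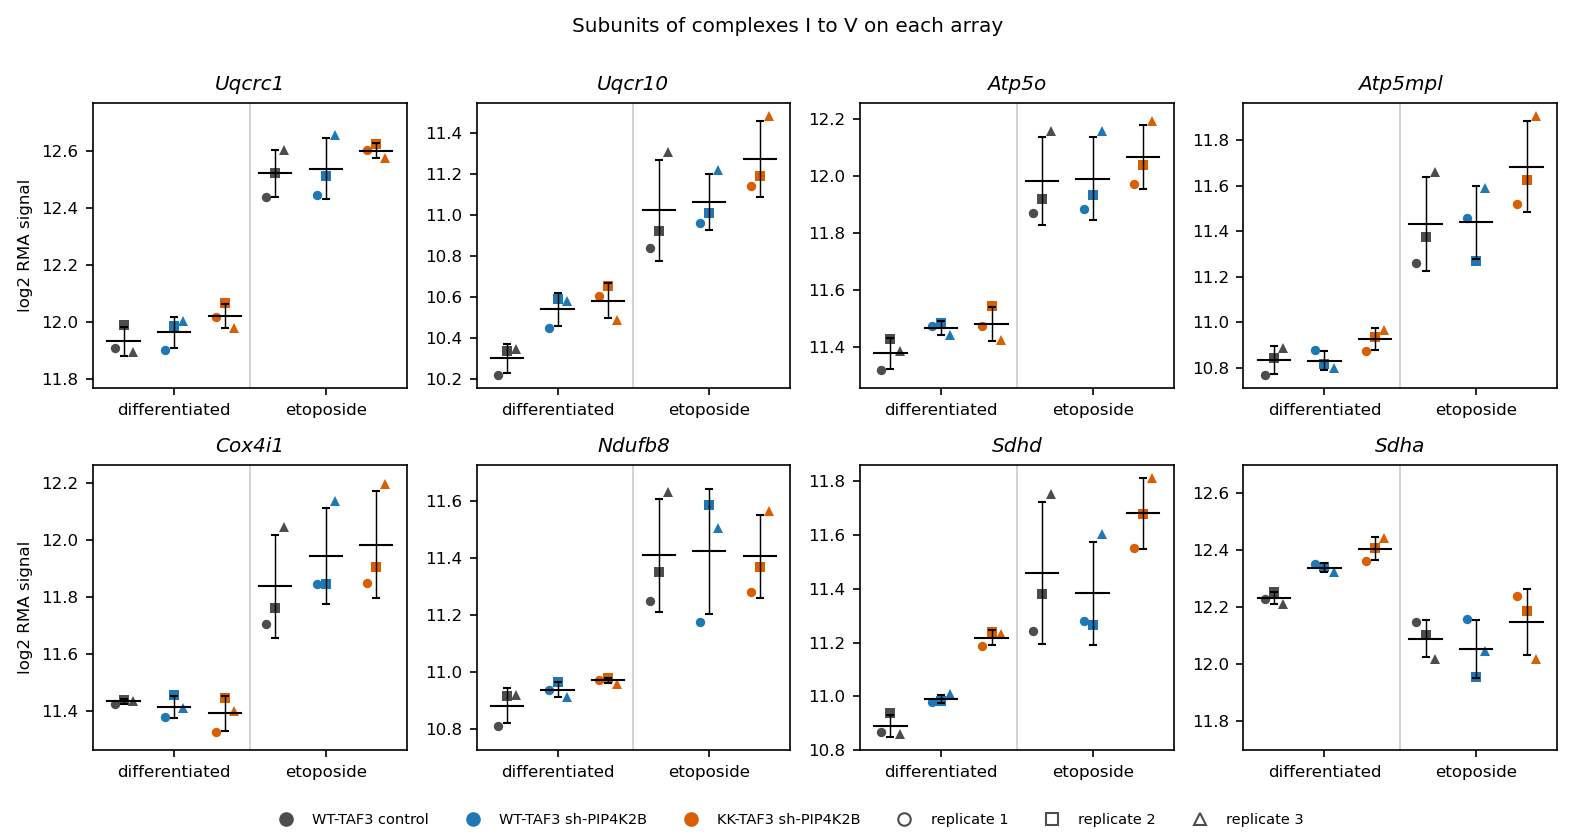
Log2 RMA signal (vertical axis) of 8 subunit genes on each of the 18 arrays, with colours for genotype, shapes for replicate number, black bars for group means and error bars for the SD of 3 arrays. In Uqcrc1, Uqcr10, Atp5o, Atp5mpl and Cox4i1 every etoposide array lies above every differentiated array of its genotype, and in Sdha every etoposide array lies below.

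The muscle isoforms of complex IV each followed a course of their own. Cox7a1, the heart and skeletal muscle form of subunit VIIa, had the largest rise of all 93 genes in each genotype. Its control arrays read 7.68, 7.68 and 7.77 after differentiation and 9.04, 8.91 and 9.18 after etoposide, a rise of 1.33 (SE 0.10, adjusted p = 1.31e-08). Its WT-TAF3 sh-PIP4K2B arrays read 7.76, 7.74 and 7.89 and then 8.56, 8.60 and 8.87, a rise of 0.88 (SE 0.10, adjusted p = 2.06e-06). Its KK-TAF3 sh-PIP4K2B arrays read 7.95, 7.81 and 7.93 and then 8.80, 9.02 and 9.19, a rise of 1.10 (SE 0.10, adjusted p = 1.46e-07). The treatments were about 1 log2 unit apart and did not overlap, and these 3 calls held under every alternative setting that was run.

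After etoposide every WT-TAF3 sh-PIP4K2B array of Cox7a1 lay below every WT-TAF3 control array. The difference was -0.37 (SE 0.10, adjusted p = 0.0547) and missed the limit, as did the difference of the depletion effect between treatments, -0.45 (SE 0.14, adjusted p = 0.0573). The KK-TAF3 sh-PIP4K2B arrays overlapped both other genotypes, and their difference from WT-TAF3 sh-PIP4K2B was 0.33 (adjusted p = 0.159). The widely expressed partner Cox7a2 had differences between treatments of 0.29, 0.15 and 0.23, and Cox7a2l, a related protein known for a part in respiratory supercomplexes, rose by 0.36, 0.38 and 0.26.

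Cox8b, the muscle form of subunit VIII, was the single member past the adjusted p for KK-TAF3 in differentiated cells. Its signal is low, with a mean of 7.08 over all arrays, while the array medians over all genes were 7.89 to 8.02. The differentiated WT-TAF3 sh-PIP4K2B arrays read 7.34, 7.24 and 7.33, the KK-TAF3 sh-PIP4K2B arrays 6.78, 6.84 and 6.86 and the control arrays 7.14, 7.21 and 7.10. The groups did not overlap, with the KK-TAF3 arrays lowest, and the fall was 0.48 (SE 0.08, adjusted p = 0.0017), just under the fold limit. It passed that limit without WT-TAF3 sh-PIP4K2B replicate 2 or without KK-TAF3 sh-PIP4K2B replicate 3. After etoposide the arrays read 7.09, 7.01 and 7.16 in WT-TAF3 sh-PIP4K2B, 7.02, 6.79 and 7.03 in KK-TAF3 sh-PIP4K2B and 7.09, 7.21 and 7.28 in control cells, which overlapped. The KK-TAF3 difference was then -0.14 (adjusted p = 0.386), and the change of that difference between treatments, 0.34 (SE 0.11), did not pass (adjusted p = 0.509). Its partner Cox8a, found in most tissues, differed between KK-TAF3 and WT-TAF3 by 0.06 in differentiated cells.

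Some muscle markers, but not all of those listed, were also lower in that comparison. In differentiated cells Myog, a transcription factor of early myotubes, was lower in KK-TAF3 than in WT-TAF3 cells by a log2 difference of -1.02 (SE 0.09), and Acta1, skeletal actin, by -1.18 (SE 0.10). Of 10 muscle markers 5 were lower and none higher at the adjusted p alone, and 5 did not pass. Differences were negative for 7 of the markers and positive for 3, the highest being Myod1 at 0.20. The median signal over the list was 9.53 to 9.69 on the WT-TAF3 sh-PIP4K2B arrays and 9.02 to 9.09 on the KK-TAF3 sh-PIP4K2B arrays. The part of these markers in the value of Cox8b was not tested. Cox7a1 and Cox6a2 had differences of 0.10 and -0.03 in the same comparison.

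Cox6a2, the muscle form of subunit VIa, passed no test. Its differentiated arrays read 8.08, 8.13 and 7.91 in control, 7.92, 7.74 and 7.82 in WT-TAF3 sh-PIP4K2B and 7.73, 7.83 and 7.83 in KK-TAF3 sh-PIP4K2B cells. After etoposide they read 7.79, 7.98 and 7.87, then 7.82, 8.20 and 8.16, then 8.07, 7.85 and 7.89, so that the groups overlapped in each genotype. The differences between treatments were -0.16, 0.23 and 0.14. Its depletion effect had the highest positive change between treatments of the 93 genes, 0.39 (SE 0.14, adjusted p = 0.0729). The partner Cox6a1 rose by 0.47, 0.38 and 0.38.

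**Figure D4:**
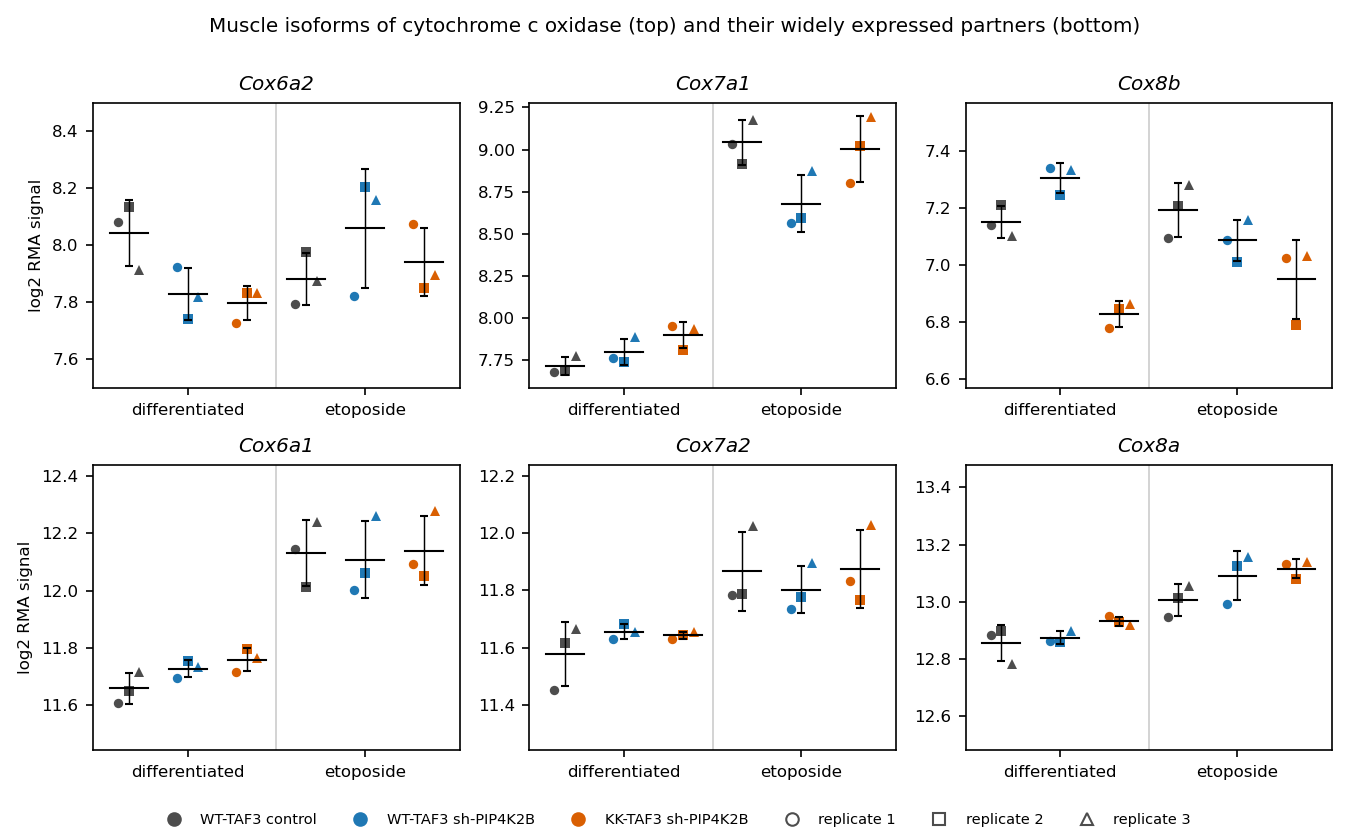
Log2 RMA signal (vertical axis) on each of the 18 arrays for the muscle isoforms Cox6a2, Cox7a1 and Cox8b in the top row and their widely expressed partners Cox6a1, Cox7a2 and Cox8a in the bottom row, with colours for genotype, shapes for replicate number, black bars for group means and error bars for the SD of 3 arrays. Cox7a1 is higher on all etoposide arrays and Cox6a2 overlaps between treatments. Among differentiated arrays Cox8b is lowest on the 3 KK-TAF3 sh-PIP4K2B arrays, between 6.78 and 6.86. After etoposide KK-TAF3 sh-PIP4K2B replicate 2 reads 6.79, within that range.

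The remaining isoforms are known mostly from other tissues, and few of them changed. Cox4i2, a form of subunit IV known from lung, had differences between treatments of -0.03, 0.10 and 0.15, and Cox6b2 and Cox8c, testis forms, of -0.20, 0.08 and -0.08 and of -0.22, 0.14 and 0.18. None of these passed. Cox7b2 fell by 0.25 in WT-TAF3 sh-PIP4K2B cells (adjusted p = 0.011), with -0.18 and -0.11 in the control and KK-TAF3 sh-PIP4K2B cells. Ndufa4l2, a relative of Ndufa4 that is induced in low oxygen, had differences of 0.15, 0.28 and 0.28, of which the last 2 passed the adjusted p.

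Among the assembly factors, Ndufaf5, which modifies a core subunit of complex I, rose by 0.68 in control cells (7.36, 7.31 and 7.52 against 7.98, 7.91 and 8.32, SE 0.12, adjusted p = 0.00029). It rose by 0.34 in WT-TAF3 sh-PIP4K2B and 0.51 in KK-TAF3 sh-PIP4K2B cells, the latter call being lost without etoposide replicate 3 (0.38) or differentiated replicate 2. That call was also lost with centred arrays and with quantile normalization within each treatment. Of the 11 factors 4, 2 and 2 were higher and 0, 1 and 0 lower at the adjusted p alone, with medians of 0.26, 0.02 and 0.18. The higher ones were 36.4%, 18.2% and 18.2% of the factors, against 14.6%, 18.7% and 12.8% of all genes, so that in WT-TAF3 sh-PIP4K2B cells the share was at the background. Under PIP4K2B depletion after etoposide all 11 had negative differences, with a median of -0.07, but without control replicate 3 there were 6 positive differences and a median of 0.01, and without WT-TAF3 sh-PIP4K2B replicate 2 there were 5 and a median of -0.00. For KK-TAF3 10 had positive differences, with a median of 0.20, and without WT-TAF3 sh-PIP4K2B replicate 2 or KK-TAF3 sh-PIP4K2B replicate 3 the medians were 0.11 and 0.10. None of these passed, and both rest on the WT-TAF3 sh-PIP4K2B arrays.

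Sdhaf4, an assembly factor that handles the flavoprotein Sdha, was the single member past the threshold under PIP4K2B depletion. Its differentiated arrays read 7.90, 7.97 and 8.27 in control, 8.64, 8.77 and 8.60 in WT-TAF3 sh-PIP4K2B and 8.58, 8.63 and 8.65 in KK-TAF3 sh-PIP4K2B cells, so that every control array was below every depleted array. Depletion raised it by 0.63 (SE 0.14, adjusted p = 0.0141). After etoposide the WT-TAF3 sh-PIP4K2B arrays read 8.34, 7.96 and 8.25 and the control arrays 8.14, 8.21 and 8.32, a difference of -0.04. Between treatments it fell by 0.49 in WT-TAF3 sh-PIP4K2B cells (adjusted p = 0.0101), a call that was lost without etoposide replicate 2 (-0.38) or differentiated replicate 2 (-0.44).

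The probes of Sdhaf4 disagreed, however. Its second, dimmer transcript cluster gave -0.11 for depletion in differentiated cells and 0.15 for etoposide in WT-TAF3 sh-PIP4K2B cells, and the mean of both clusters gave 0.26 for depletion, which was not past the threshold. The call was also lost without WT-TAF3 sh-PIP4K2B replicate 2 and without WT-TAF3 control replicate 1 or 2 of the differentiated arrays (0.58, 0.55 and 0.59). The clusters thus gave no single direction for this gene.

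The tests of whether the genotype effects differed between treatments gave 1 member, Sdhaf4, for PIP4K2B depletion (-0.67, SE 0.19, adjusted p = 0.0475), where 1.95% of all genes were higher and 2.07% lower. Of 12 fits that each left out 1 array of these groups the call was lost in all but those without WT-TAF3 control differentiated replicate 3 or WT-TAF3 sh-PIP4K2B etoposide replicate 1. With the arrays centred on their medians, which moved the median of all genes by -0.14, 6 members were past the threshold as lower, and 1.1% and 9.34% of all genes were higher and lower at the adjusted p alone, so the count rests on the scaling. For KK-TAF3 no member passed, at a background of 0.135% and 0.015%, and 1 had an unadjusted p under 0.05. For depletion 11 members had an unadjusted p under 0.05. The members' medians of -0.07 and 0.05 moved with single arrays. For depletion the median was -0.01 and -0.12 without control etoposide replicates 3 and 1, and -0.03 and -0.13 without WT-TAF3 sh-PIP4K2B etoposide replicates 2 and 3. It was -0.22 with centred arrays and -0.01 with quantile normalization within each treatment. For KK-TAF3 it was 0.03, 0.02 and 0.11 without WT-TAF3 sh-PIP4K2B etoposide replicates 1, 2 and 3, 0.10 and -0.00 without KK-TAF3 sh-PIP4K2B etoposide replicates 1 and 3, and 0.09 with centred arrays.

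Genes around the system were looked at from lists. Of 16 measured genes of electron transport outside the rule (cytochrome c1, cytochrome c, electron-transfer flavoprotein and ubiquinone synthesis) 10, 8 and 9 were higher and 0, 1 and 0 lower at the adjusted p alone, with medians of 0.30, 0.20 and 0.27. The background of higher genes for this and the next lists was 14.6%, 18.7% and 12.8%. Cyc1, the cytochrome c1 of complex III, rose by 0.56 in control cells, 0.37 in WT-TAF3 sh-PIP4K2B and 0.40 in KK-TAF3 sh-PIP4K2B cells. Coq3 and Coq6, enzymes of ubiquinone synthesis, rose by 0.76 and 0.58 in control cells. These values lie in the range of the subunit genes.

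Of 31 other assembly factors 15, 7 and 10 were higher (48.4%, 22.6% and 32.3%) and 0, 3 and 0 lower, Nubpl being the lowest in WT-TAF3 sh-PIP4K2B cells at -0.40, with medians of 0.27, 0.04 and 0.15. Foxred1, Cox17 (a copper chaperone of complex IV) and Ecsit passed the fold limit in control cells at 0.61, 0.57 and 0.53. For the change of the depletion effect between treatments, Nubpl and Cox17 were past the threshold, at -0.68 and -0.65. Of 23 regulators of mitochondrial biogenesis 3, 5 and 3 were higher and 0, 4 and 3 lower, and the higher shares of 13.0%, 21.7% and 13.0% were near the background. Ppargc1b, a coactivator of the estrogen-related receptors, rose by 0.55 in control cells, and Gabpa, the DNA-binding part of GABP, fell by 0.56 in WT-TAF3 sh-PIP4K2B cells. The medians of the regulators were 0.02, -0.05 and 0.10.

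Of 22 genes of the tricarboxylic acid cycle and pyruvate entry 15, 7 and 9 were higher (68.2%, 31.8% and 40.9%) and 1, 5 and 3 lower. The lower genes past the fold limit were pyruvate dehydrogenase kinases, which switch off pyruvate entry. Pdk3 fell by 0.64, 0.75 and 0.66 in the 3 genotypes, and Pdk1 fell by 0.99 in WT-TAF3 sh-PIP4K2B and 0.82 in KK-TAF3 sh-PIP4K2B cells. This list also held the calls under PIP4K2B depletion. Pdk4 rose by 0.62 in differentiated cells and by 0.54 after etoposide, and Idh2, the mitochondrial NADP-dependent isocitrate dehydrogenase, fell by 0.61 after etoposide and by 0.45 in differentiated cells, the latter under the fold limit. Pdk1 fell by 0.51 under depletion after etoposide. Of 15 carriers and membrane transport genes 5, 3 and 4 were higher (33.3%, 20.0% and 26.7%), near the background in WT-TAF3 sh-PIP4K2B cells, and Tomm40, the import pore, passed the fold limit at 0.50 in WT-TAF3 sh-PIP4K2B cells. None of these genes passed for KK-TAF3 against WT-TAF3.

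Markers of cell types were set beside the comparison of etoposide with differentiation. The 10 muscle markers had a median signal of 9.02 to 9.69 on differentiated arrays and 8.55 to 8.78 on etoposide arrays. In control cells 6 of them were lower and 3 higher at the adjusted p alone, among them Myog at -0.77 and Myf5, a factor of undifferentiated myoblasts, at 0.83. In WT-TAF3 sh-PIP4K2B cells 6 were lower and 2 higher, and in KK-TAF3 sh-PIP4K2B cells 2 were lower and 3 higher. Des, the muscle intermediate filament protein, had a mean of at least 12.73 in every group, whereas Myog had means of 6.77 to 6.93 after etoposide. The 5 fibroblast markers fell in part, with 2 past the threshold as lower in each genotype, and their median signal was 12.25 to 12.55 on differentiated arrays and 10.45 to 11.92 on etoposide arrays. The medians of the macrophage, fat, brown fat and endothelial lists lay between 5.88 and 7.00 on all arrays, and the highest of the cardiac list was 7.70. The array medians over all genes were 7.89 to 8.02. All 5 cardiac markers were higher in WT-TAF3 sh-PIP4K2B cells at the adjusted p alone, by 0.24 to 0.36, as were 2 of 3 endothelial markers. In the macrophage list Cd68, a lysosomal protein, was past the threshold as higher in control and KK-TAF3 sh-PIP4K2B cells, at 0.52 and 0.60. The part of these lists in the values of the respiratory genes was not tested.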

How the data were processed

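Per the submitters' processing notes, the authors obtained the log2 values they deposited from Affymetrix Expression Console by RMA, that is background correction, quantile normalization between arrays and 1 summary per transcript cluster. The program's version is not given in the sources used here. The values were used as deposited. The supplement of the study names a later chip than the annotation that lists these identifiers, so gene names rest on that annotation. Of 35556 clusters 21789 had 1 symbol, 1621 several and 12146 none there. The brightest cluster of each gene was kept, which gave 19938 genes.

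A single linear model of the 6 group means was fitted with limma 3.58.1 under R 4.3.3 (12 residual and 6.06 prior degrees of freedom), with Benjamini-Hochberg adjustment over all genes, and the threshold took the fold limit of 1.4 from the study's methods. The procedure was tested on simulated data. Python 3.11.15 with pandas 2.3.3 and matplotlib 3.10.9 served for tables and plots. The design text gives 3 days of differentiation and the sample labels 2 days, and the labels were followed. The replicates are described as biological, without saying what separated them.

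Members and lists were chosen with earlier results of these data known. Named were the isoforms with their partners, 1 or more catalytic subunits a complex, the extremes of each comparison, and members past the threshold, up to 3 a class and direction for etoposide. Ndufb11, Cox6c, Cox7b, Uqcrb and a few others were named after their values were seen. Replicate numbers were checked for pairing. Deviations from group means on same-numbered arrays correlated between 0.332 and 0.559 for the 3 pairs of WT-TAF3 control and WT-TAF3 sh-PIP4K2B after etoposide, which counts as paired, but between -0.291 and 0.593 over all 18 such pairs. Alternatives were other calling rules, priors, gene filters, cluster summaries, scalings, a block for the replicate number and fits without each array in turn. Leaving out the 3 etoposide arrays numbered 3, and single etoposide arrays for the assembly factors, was added after the data were seen.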

Additional observations from a re-analysis of the deposited data

Results flagged for a closer look

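On its brighter cluster Sdhaf4 passed the threshold for a change of the PIP4K2B depletion effect between treatments. That change, tested itself in limma, was -0.67 on the log2 scale (SE 0.19, adjusted p = 0.0475). The call was lost in 15 of 24 alternatives, most fits without 1 array among them. Depletion gave 0.63 in differentiated cells and -0.04 after etoposide. The dimmer cluster of the gene gave 0.33 for the same term, in the opposite direction, and the adjusted p was 0.096 when every transcript cluster was tested.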

How the results depend on the processing

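Of 28 values that were followed, 12 held their call under every alternative, 15 lost it under at least 1, the Cox8b value for KK-TAF3 passed the threshold only under some, and none reversed. Of the alternative counts, 180 stayed within 1.5 times the reported count and 40 did not. With no fold limit the counts were 1 for KK-TAF3 in differentiated cells and 58, 49 and 52 for etoposide in control, WT-TAF3 sh-PIP4K2B and KK-TAF3 sh-PIP4K2B cells. With centred arrays they were 17 and 3 for etoposide in the first pair (28 and, for KK-TAF3 sh-PIP4K2B, 33 at the adjusted p alone) and 6 for the depletion effect between treatments. With the array median as a covariate they were 0 for depletion in differentiated cells, 3 for etoposide in WT-TAF3 sh-PIP4K2B cells (22 at the adjusted p alone) and 0 for the depletion effect between treatments. The mean of a gene's clusters gave 0 for depletion in differentiated cells and 0 between treatments, where testing every cluster also gave 0. Without the 3 etoposide arrays numbered 3 the counts were 5 and 4 for etoposide in the first pair and 0 for the depletion effect between treatments. The next ranges are over fits without 1 array and, where etoposide arrays were compared, also the fit without the 3 numbered 3. They were 0 to 1 for depletion and 0 to 1 for KK-TAF3 in differentiated cells, 0 to 0 for both after etoposide, 5 to 18, 4 to 13 and 5 to 13 for etoposide in the 3 genotypes (39 to 59, 33 to 47 and 32 to 58 at the adjusted p alone), 0 to 2 for the depletion effect between treatments and 0 to 0 for that of KK-TAF3. With a replicate block the counts were 1, 0, 0 and 0 for the genotype comparisons, 10, 8 and 7 for etoposide and 1 and 0 between treatments, as without it, and at the adjusted p alone 61, 51 and 55 for etoposide in place of 58, 49 and 52. Same-numbered arrays were the best partners of each other in 6 of 18 cases. The causes were not tested. With 3 arrays a group, standard errors of 0.07 to 0.12 limit what can be seen for most genes.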
